A study of Homo sapiens with 2 samples.

Results

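The tRNA splicing machinery was followed through the mRNA levels of 5 of its genes in K562 cells that had received a miR-34a mimic or a control mimic. The members are TSEN15, TSEN34 and TSEN54, which encode subunits of the tRNA splicing endonuclease, CLP1, which encodes an RNA kinase bound to it, and RTCB, which encodes the tRNA ligase. They are 5 of 19775 genes with a probe set of their own in the table, and all 10 probe sets whose only annotated symbol was one of these were used. The set was chosen by the log2 ratio of TSEN15, which was among the largest decreases in these same data. The values of TSEN15 are therefore a description, and the values of the other members show whether they lay with it.

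Both groups were K562, a human erythroleukemia line that grows in suspension and can mature towards red cells or megakaryocytes. One culture was nucleofected, that is, electroporated so that nucleic acid enters cytoplasm and nucleus, with 3 µg of miR-34a mimic, a synthetic RNA that acts as the microRNA. The other culture had 3 µg of a control mimic whose sequence matches no human gene, and RNA was taken from both after 24 hours. There was 1 array per group, so every value below is a single measurement, no test between the mimics was possible, and precision is limited by the number of arrays. Total RNA of whole cultures was measured, so fewer cells that carry a transcript and less of it per cell cannot be told apart.

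In human cells a minority of tRNA genes carry an intron, and their transcripts are useless in translation until it is removed. The endonuclease cuts the precursor at both ends of the intron. TSEN34 is one of its cutting subunits, while TSEN15 and TSEN54 shape the complex. RTCB then joins the exons directly, within a complex of its own, and the same ligase joins the pieces of XBP1 mRNA that IRE1 cuts during endoplasmic reticulum stress. CLP1 also belongs to a cleavage factor of mRNA 3′ ends. Inherited variants in the endonuclease genes and in CLP1 are known causes of pontocerebellar hypoplasia, an early loss of hindbrain tissue.

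The agent that differed between the cultures is given here by the mature sequences of both arms of the miR-34a hairpin, from RefSeq on GRCh38.p14, because the labels do not say which arm the mimic carries. The capitals mark the seed, bases 2 to 8, through which a microRNA pairs with most of its targets.
hsa-miR-34a-5p: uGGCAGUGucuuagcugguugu
hsa-miR-34a-3p: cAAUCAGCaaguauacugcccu
The 5p arm lies at chr1:9151735-9151756 and the 3p arm at chr1:9151693-9151714, both on the minus strand. The DNA letters that pair with the 5p seed are CACTGCC. The RefSeq miRNA table used here lists hsa-miR-449a and hsa-miR-449b-5p with the 5p seed, and no other mature miRNA with the 3p seed. That listing may be incomplete, so further members of the miR-34 family may share a seed. No transcript sequence of the members was searched for these letters.

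Signals are the deposited intensities in arbitrary units. A log2 ratio is log2(signal + 14.9) with the miR-34a mimic less the same with the control mimic, centred on the median of 12774 expressed genes, so a negative value is lower with miR-34a. A probe set was expressed if its mean level reached the median of all probe sets. A signal was within background if it did not exceed 75.4, the highest of 27 probe sets for bacterial transcripts. The median signal of all probe sets was 40.1 on the miR-34a array and 39.5 on the control array. The 3′ to 5′ signal ratio of GAPDH, which grows as RNA degrades, was 3.53 on the miR-34a array and 3.07 on the control array. That of ACTB was 4.54 on the miR-34a array and 4.30 on the control array. The part of RNA degradation in the results was not tested. All 6 measured of 7 listed markers of K562 lay above background on both arrays, GATA1 and HBZ among them. Of 14 measured markers of T cells, B cells, monocytes, fibroblasts, epithelium and liver, 3 did (CD79A, LYZ and COL1A1), while CD3E, CD14, KRT5 and ALB were within background. The summed signal of these 14 was 1418 on the miR-34a array and 1336 on the control array.

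TSEN15 was lower with miR-34a on all 3 of its probe sets, and no other member came near it. Its brightest probe set, 225399_at, read 146.9 with the miR-34a mimic and 576.6 with the control mimic. Both signals lay above background, and the miR-34a signal was 3.92-fold lower. Probe set 225400_at read 37.8 with the miR-34a mimic and 116.0 with the control mimic. The miR-34a signal lay within background there, so its 3.07-fold difference rests on a dim measurement. Probe set 230257_s_at read 155.4 with the miR-34a mimic and 234.5 with the control mimic, a 1.51-fold lower signal with both values above background.

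On the log2 scale the TSEN15 probe sets stood at -1.88, -1.32 and -0.56. The first of them had the 4th lowest ratio of 27307 expressed probe sets. The second counted as expressed through its control signal, since its miR-34a signal lay under the filter level of about 39.0. The first and the second were at least 2-fold lower, as were 0.505% of expressed probe sets, and the third was not. None of the member probe sets was 2-fold higher, beside 0.531% of expressed probe sets. With 4 times the pseudocount, or with only probe sets above the 75th percentile of level kept, 1 of them remained past 2-fold and expressed. By its brightest probe set TSEN15 ranked 3rd lowest of the expressed genes, of which 0.548% were at least 2-fold lower and 0.595% at least 2-fold higher. Averaged over its probe sets it stood at -1.25 ± 0.66 (SD, 3 probe sets).

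The size of the decrease thus differed between the probe sets of TSEN15. Among 1377 genes with 3 expressed probe sets the median SD of the log2 ratio over probe sets was 0.17, and 12, TSEN15 included, had one of 0.66 or more. Of the 28 genes with more than 1 expressed probe set that were at least 2-fold lower on the brightest, 11, TSEN15 included, had an SD of 0.66 or more. These were picked for an extreme value on 1 probe set, which by itself widens the SD. In 23 of these 28 all expressed probe sets were lower, and in 13 at least 2 were past 2-fold. TSEN15 was among the 13, but its second such probe set, 225400_at, passed the filter through its control signal. Of all 5494 genes with more than 1 expressed probe set, 1538 had all of them lower. The 28 were chosen with their brightest probe set already lower, so the shares are not comparable and do not measure agreement between probe sets. The ending _s_at marks a probe set whose probes match more than 1 transcript, and the smallest change of TSEN15 was on its single probe set of that class. Whether the class bears on the size of the change was not tested.

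**Figure D1:**
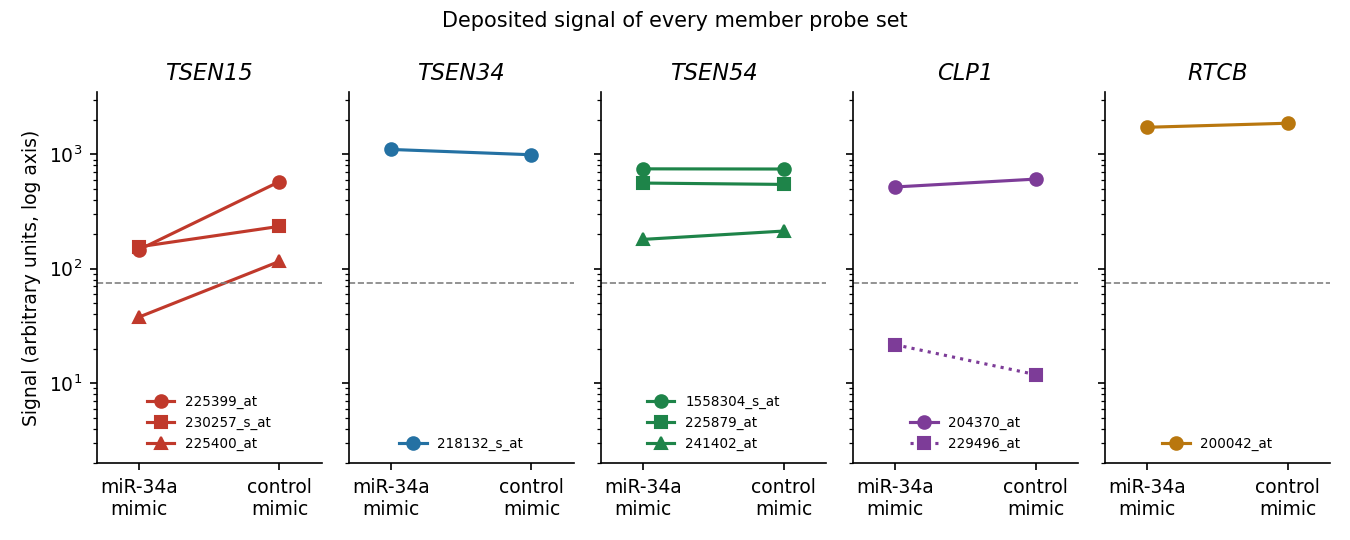
Deposited signal of each probe set of TSEN15, TSEN34, TSEN54, CLP1 and RTCB with the miR-34a mimic (left in each panel) and the control mimic (right), on a log axis in arbitrary units, with 1 array per point. The dashed line is the background limit of 75.4, and the dotted line joins the CLP1 probe set that was not expressed. The 3 lines of TSEN15 climb towards the control mimic, while those of the other expressed probe sets are close to level.

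TSEN34, a cutting subunit, was not lower. Its single probe set, 218132_s_at, read 1102 with the miR-34a mimic and 990.2 with the control mimic, a log2 ratio of 0.14. It had the highest ratio of the 5 genes. Among the 500 expressed genes nearest to it in level, the middle 95% of ratios ran from -0.59 to 0.54, and TSEN34 lay inside that range.

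TSEN54, the other structural subunit, was nearly level. Probe set 1558304_s_at read 745.7 with the miR-34a mimic and 743.1 with the control mimic, at a log2 ratio of -0.0039. Probe set 225879_at read 560.4 with the miR-34a mimic and 545.3 with the control mimic, at 0.029. The dimmest, 241402_at, read 180.4 with the miR-34a mimic and 213.3 with the control mimic, at -0.23. All 6 signals lay above background, and the ratios had an SD of 0.14 over the 3 probe sets.

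CLP1, the kinase that phosphorylates RNA 5′ ends, was slightly lower on its expressed probe set. That probe set, 204370_at, read 518.1 with the miR-34a mimic and 606.7 with the control mimic, a log2 ratio of -0.23. The other, 229496_at, read 21.7 with the miR-34a mimic and 11.9 with the control mimic. It was the 1 member probe set of 10 under the filter, and its signals, both at background level, show no change that can be read. The nearest 500 genes in level to CLP1 had ratios from -0.75 to 0.63 in their middle 95%, a range that includes -0.23.

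RTCB, the ligase, read 1721 with the miR-34a mimic and 1867 with the control mimic on its single probe set, 200042_at. The log2 ratio was -0.13, inside the range of -0.52 to 0.39 that held the middle 95% of the 500 genes nearest in level. The SD of the log2 ratio over probe sets of one gene, pooled over 5494 genes with more than 1 expressed probe set, was 0.24. It is spread between probe sets on these arrays, whose sources were not separated, and does not measure the spread between cultures. The gene ratios of TSEN34, TSEN54, CLP1 and RTCB all lay within 0.24 of 0, that of CLP1 only just, at -0.23.

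Across the members, 7 of 9 expressed probe sets were lower and 2 higher, against 50.6% lower and 49.4% higher among all expressed probe sets. Without TSEN15 they were 4 lower and 2 higher, between -0.23 and 0.14. The median gene ratio was -0.13 with TSEN15 and -0.065 without it, beside 0 for all expressed genes, which the centring sets. TSEN15 stood 1.65 below CLP1, the next lowest gene, 1.75 below RTCB, 1.88 below TSEN54 and 2.02 below TSEN34, as differences of log2 ratios. TSEN15 was chosen for its decrease, so these gaps are a description, and the spread between cultures was not measured. The same holds for the _s_at probe set of TSEN15, at -0.56, where the lowest expressed probe set of the other members was at -0.23.

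**Figure D2:**
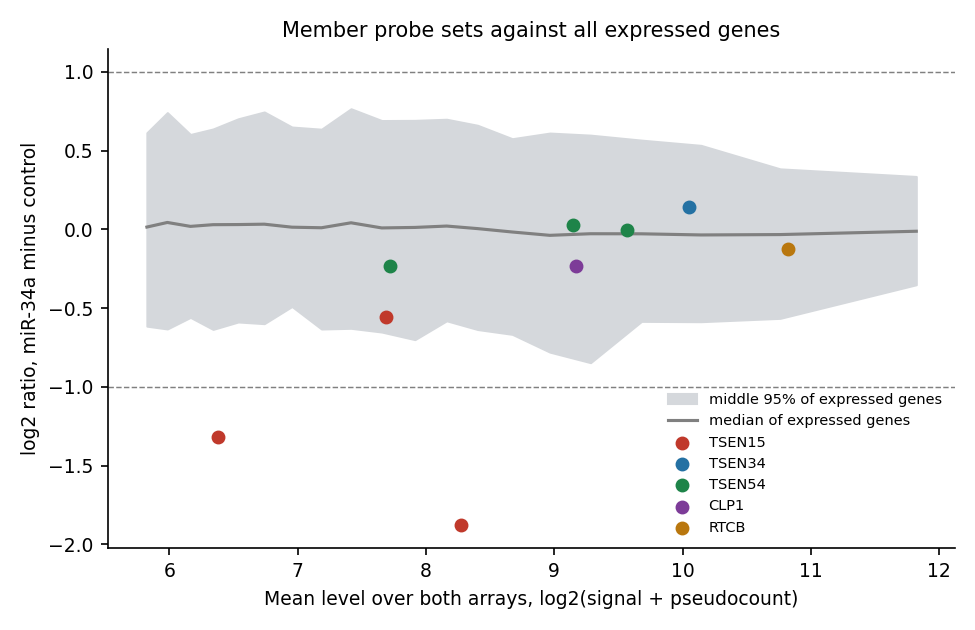
Log2 ratio (miR-34a mimic minus control mimic) of the 9 expressed member probe sets against their mean level on both arrays, with the middle 95% (band) and the median (line) of the expressed genes in 20 groups of rising level. The dashed lines mark 2-fold. TSEN15 has points at -1.88 and -1.32 below the band and the other at -0.56 in its lower part, and the probe sets of the other members lie inside the band.

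The genes with ratios most like that of TSEN15 were PPP1R11, HES1, APOC1, CDK6 and TAF4B, taken as the 5 nearest log2 ratios among 2967 genes with more than 1 expressed probe set, all moving the same way. Likeness here rests on a single ratio between 2 arrays. PPP1R11, an inhibitor of protein phosphatase 1, read 292.6 with the miR-34a mimic and 1006 with the control mimic, at -1.74. CDK6, a kinase of the G1 phase and a known target of miR-34a, read 543.2 with the miR-34a mimic and 1714 with the control mimic, at -1.64. TSEN15 was the lowest of the 2967. HES1, a Notch-induced repressor whose miR-34a signal was within background, had -1.72, the apolipoprotein gene APOC1 -1.66 and the TFIID subunit gene TAF4B -1.62. Their probe sets differed in size, and the smallest changes were -0.023 in TAF4B and -0.087 in CDK6. Other known targets were CDK4 at -1.59, SIRT1 at -1.17 and MYB at -0.79, while MYC stood at -0.77. Of the genes on either side of TSEN15 in the RefSeq table, COLGALT2 was not analysed here and C1orf21 was within background on both arrays on all 5 of its probe sets.

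The partners of the ligase were close to level. Of 7 genes, 6 were lower and 1 higher, beside 6387 lower of all 12774 expressed genes, none was past 2-fold, and the median log2 ratio was -0.043, between -0.15 and 0.12. Averaged over probe sets, 4 were lower and 3 higher. DDX1, the RNA helicase of the complex, read 2908 with the miR-34a mimic and 2924 with the control mimic, at -0.017. RTRAF, another core subunit, had -0.13, and ZBTB8OS, which encodes archease, the factor that lets the ligase turn over, had -0.15. FAM98B had -0.043 and 0.11 on its expressed probe sets. Its relative FAM98A had 0.12 on the brighter probe set and -0.36 on a dim one within background with the miR-34a mimic. C2orf49, which encodes ashwin, had -0.11 with another probe set at 0.21, and PYROXD1, an oxidoreductase that protects the ligase, had -0.022.

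XBP1 mRNA, the other substrate of RTCB, was lower by nearly 2-fold. Its brighter probe set read 476.3 with the miR-34a mimic and 950.6 with the control mimic, a log2 ratio of -0.98. A second one read 58.1 with the miR-34a mimic and 46.6 with the control mimic, both within background. ERN1, the gene of IRE1, which cuts XBP1 mRNA, read 82.7 with the miR-34a mimic and 64.1 with the control mimic. Its control signal was within background, and so were both signals of its other 2 probe sets. These probe sets measure total mRNA, and splicing of XBP1 was not analysed here.

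Of 4 enzymes listed for their action on phosphates of RNA, 4 were higher on their brightest probe sets. Among all 12774 expressed genes 6387 were higher. The median of the 4 was 0.25 and none was past 2-fold. RTCA, the RNA terminal phosphate cyclase, had 0.33, reading 1165 with the miR-34a mimic and 919.1 with the control mimic. Its second probe set went the other way, at -0.44, and read 262.6 with the miR-34a mimic and 358.9 with the control mimic. CNP, a cyclic nucleotide phosphodiesterase, had 0.26 and 0.35 on its probe sets. TRPT1, a tRNA phosphotransferase, had 0.24, and ANGEL2, a cyclic phosphatase, had 0.11. Averaged over probe sets, 1 of the 4 was lower.

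Of 17 expressed genes that trim and finish tRNA ends, 13 were lower and 4 higher, with a median of -0.13, beside 6387 lower of the 12774 expressed genes. RPP25, an RNA-binding subunit of RNase P and RNase MRP, was the 1 gene past 2-fold. It read 132.4 with the miR-34a mimic and 318.0 with the control mimic on 219143_s_at, at -1.19, and 115.1 with the miR-34a mimic and 180.6 with the control mimic on 223415_at, at -0.60. RPP25 was no longer past 2-fold as a mean over its probe sets, with 4 times the pseudocount or without the _s_at class. HSD17B10, a subunit of mitochondrial RNase P, had -0.56 and POP5, shared by RNase P and MRP, -0.33. At the other end ELAC1, a tRNA 3′ endonuclease, had 0.27 with both signals within background, RPP40 had 0.11 and SSB, the La protein that binds fresh RNA polymerase III transcripts, 0.070. RPP21 was not analysed here.

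The machinery that transcribes tRNA genes was split. Of 21 expressed genes of RNA polymerase III and its factors, 12 were lower and 9 higher, beside 6387 lower of all 12774. Their median was -0.086 and none was past 2-fold. MAF1, the repressor of this polymerase, was lowest and read 306.6 with the miR-34a mimic and 501.6 with the control mimic, at -0.69. POLR3C had -0.41 and GTF3C6 -0.29. POLR3GL, which takes the place of POLR3G in one form of the polymerase, was highest and read 524.4 with the miR-34a mimic and 347.0 with the control mimic, at 0.57, followed by POLR3B at 0.20 and GTF3C3 at 0.19.

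Among export receptors XPO5, which carries precursor miRNAs and some tRNAs, was lower on all 3 probe sets, from -0.55 to -0.22. Its brightest probe set read 522.5 with the miR-34a mimic and 764.4 with the control mimic. XPOT, the main tRNA exporter, had 0.017. NXF1 was not analysed here.

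CLP1's other setting, mRNA 3′ end processing, had 15 of 19 expressed genes lower and 4 higher, beside 6387 lower of all 12774, at a median of -0.072 with none past 2-fold. FIP1L1 was lowest at -0.54, with its second expressed probe set at 0.039. CPSF1 had -0.50 from a miR-34a signal within background, and CPSF4 had -0.35. PCF11, the partner of CLP1 in its cleavage factor, read 1156 with the miR-34a mimic and 1154 with the control mimic, and was named after its values were seen. CSTF1 was highest at 0.18, then PAPOLG at 0.066 and CPSF3 at 0.020. The split was 12 lower and 7 higher without centring, with quantile normalization and with loess. WDR33 was not analysed here.

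The cytosolic tRNA synthetases, which charge the finished tRNAs, were evenly divided. Of 17 expressed genes 9 were lower and 8 higher, beside 6387 lower of all 12774, and the median was -0.017. WARS1, for tryptophan, had -0.30, YARS1, for tyrosine, -0.24 and SARS1, for serine, -0.16. HARS1, for histidine, had 0.21, EPRS1, for glutamate and proline, 0.20 and LARS1, for leucine, 0.15. No synthetase reached 2-fold. MARS1 and QARS1 were not analysed here.

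**Figure D3:**
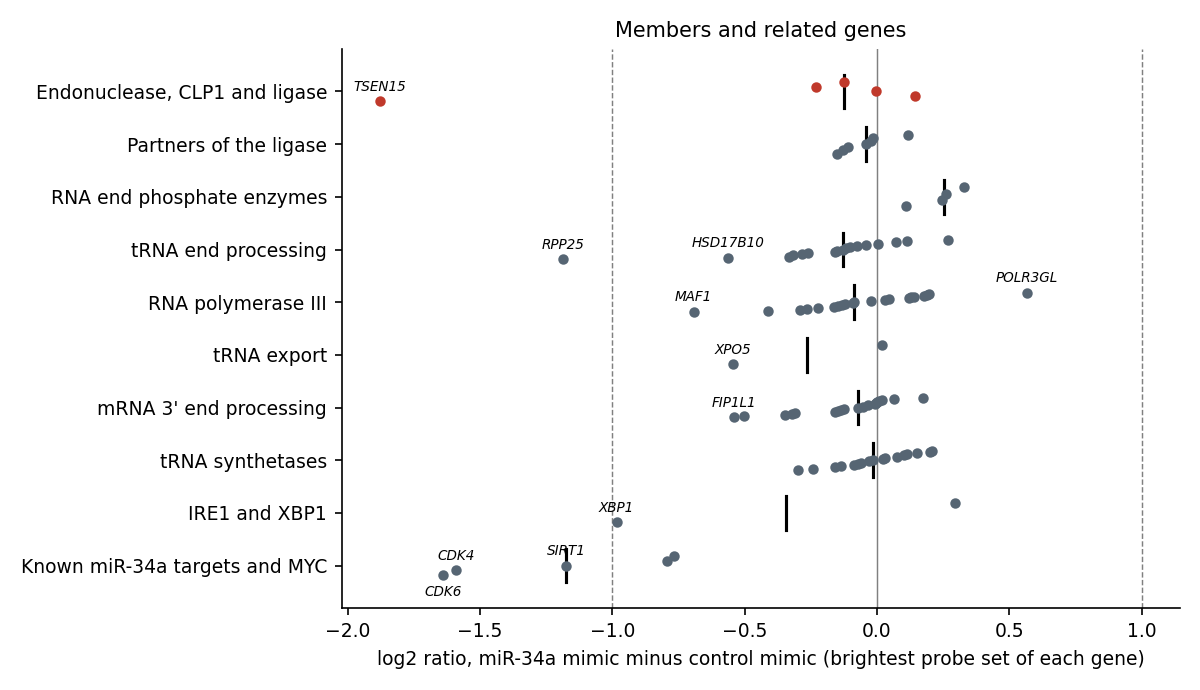
Log2 ratio (miR-34a mimic minus control mimic) of the brightest expressed probe set of each gene, for the 5 members (red) and the related lists (grey), 1 point per gene, with the median of each list as a black bar and dashed lines at 2-fold. TSEN15 at -1.88 lies apart from the other members. In the row of known miR-34a targets CDK6 is at -1.64 and CDK4 at -1.59. RPP25 at -1.19 is the single gene of the tRNA and mRNA 3′ end lists past 2-fold.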

How the data were processed

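The deposited table holds an intensity for every probe set on each of 2 arrays, linear and with a floor of 1. Per the labels' protocols, 15 µg of Trizol-extracted total RNA was turned into biotin-labelled cRNA. What software, background correction or scaling the authors used is not given in the sources used here. Such steps affect dim probe sets most. From these values log2(intensity + 14.9) was computed, 14.9 being their 25th percentile, and the ratio was centred by 0.0090. This scale understates changes of dim genes. Of 54613 probe sets other than controls, the platform annotation gave 1 symbol for 41091, several for 1801 and none for 11721, and those with 1 symbol were used. Genes are represented by the expressed probe set of highest mean level. An SD over probe sets is spread within these arrays and not between cultures. The filter lay at a signal of about 39.0, below the background limit. Genes named are all members, every measured gene of the short lists and the 3 highest and lowest of each longer list. Also named are the 5 genes nearest to TSEN15, its neighbours on the chromosome, and CDK4, CDK6, SIRT1, MYB and MYC. A list for the rest of the endonuclease held 1 gene, which was not analysed here. The members and lists were chosen with earlier results of these data known. Alternatives changed pseudocount, centring, normalization, filter, probe set choice and size threshold. Some genes of the lists are not reported here. The script was tested on simulated data. Python 3.11.15, NumPy 2.4.6, pandas 2.3.3, statsmodels 0.14.6 and matplotlib 3.10.9 were used.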

Additional observations from a re-analysis of the deposited data

How the results depend on the processing

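None of the 10 alternatives that recompute the log2 ratio of TSEN15 turned its direction or brought it within 2-fold. Its log2 ratio was -1.63 with 4 times the pseudocount and -1.25 when its probe sets were averaged, and -1.98 at the lowest. CLP1 stayed between -0.24 and -0.21, RTCB between -0.13 and -0.10, and TSEN34 between 0.14 and 0.17. TSEN54 lay between -0.064 and 0.034, so its sign is not settled. With 4 times the pseudocount, 1 member probe set was past 2-fold, 41 of all expressed genes were lower and 28 higher past 2-fold, and 0 of the tRNA end genes were. With the filter at the 75th percentile, 1 member probe set was past 2-fold, with 46 of 7817 expressed genes lower and 42 higher. With the filter at the 25th percentile 125 genes were lower and 136 higher, and without a filter 206 were lower and 215 higher. At 1.5-fold 384 genes were lower and 419 higher, and 1 RNA polymerase III gene was lower. The higher mRNA 3′ end genes numbered 7 without centring, with quantile normalization and with loess. The higher ligase partners numbered 2 with quantile normalization, with loess and without the _s_at, _x_at and _a_at classes, and 3 as a mean over probe sets. As a mean over probe sets 1 phosphate enzyme was lower, and 0 tRNA end genes were past 2-fold. Without those classes 0 tRNA end genes were past 2-fold, and TSEN34 had no value. Fewer probe sets were then used, with 5 synthetases higher beside 6 lower, and 1 member probe set higher beside 5 lower. Of 361 recomputed values, 333 differed less, counts by up to 1.5 times. Among these, 97 genes were lower and 109 higher past 2-fold with a pseudocount of 1. No paired analysis was possible because each group holds 1 array. The single array per group, the unknown background correction and signals near background limit all sizes given here.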

Other observations

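Probe sets of one gene disagreed in several genes of mRNA 3′ end processing and tRNA charging, which were chosen after their values were seen. CPSF6, a subunit of the cleavage factor that binds upstream of the poly(A) site, had log2 ratios of -0.00031, -0.55 and -0.94 on its 3 probe sets, from brightest to dimmest. The middle one, 226934_at, read 164.3 with the miR-34a mimic and 245.2 with the control mimic, both above background, and the dimmest read 32.5 with the miR-34a mimic, within background. NUDT21, its partner in that factor, had -0.31 on one probe set and 0.26 on another, with all 4 signals above background. CARS1, the cysteine tRNA synthetase, had 0.11 on its brightest probe set and -0.75 on one that read 55.5 with the miR-34a mimic, within background, and 102.8 with the control mimic.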
